A study of Drosophila melanogaster with 24 samples.

Results

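Old and young Marf-mut clock neurons were compared, 3 libraries at each age, 6 of the 24 libraries of the series. They were taken by their labels as the old and the young libraries of the Marf guide line, and all genes of the count table entered. Marf-mut flies combined the CLK856-Gal4 driver with UAS-Cas9, with UAS-3XgRNA-Marf (3 guides against Marf) and with UAS-eGFP, so that all of these were expressed where the driver was active. Old flies were about 35 days of age and young flies about 15 days. Old and young Opa1-mut and Drp1-mut flies (the same combination with guides against Opa1 or Drp1) and old and young Cas9 flies (driver, Cas9 and eGFP without guides) served as comparisons, again with 3 libraries in each group. All flies were males, dissected at ZT14, and every group carried the driver, Cas9 and eGFP. The design asks how disturbed mitochondrial fusion or fission alters clock neurons at each age. Here the change between the 2 ages within the Marf guide line is described.

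Each library was a FACS pool of about 1000 GFP-positive cells. The 3 pools of a group came from 1 cell suspension of 80 to 100 brains, so the p-values below measure the spread between sorted pools, and a difference between suspensions and a difference between ages cannot be told apart within 1 genotype. The CLK856 driver labels the circadian neurons as a class, so a pool mixes many neuron types and any other cell that passed the gate. Marf encodes the fly mitofusin, a GTPase that fuses the outer membranes of neighbouring mitochondria, while Opa1 fuses the inner membranes and Drp1 divides the organelle. Clock neurons hold daily time through the per, tim and Clk loop and signal it with neuropeptides, of which PDF from the ventral lateral neurons is the best known. Rhythms weaken as flies age, and mitochondrial fusion helps long-lived neurons to share membrane, DNA and protein between organelles.

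Depth was 1394517, 1532339 and 1735212 UMIs (unique molecular identifiers, 1 per captured RNA molecule) in old Marf-mut and 1406296, 1328007 and 2104854 in young Marf-mut, within a range of 684175 to 2889269 over the series. Levels are given as CPM, the share of a library's UMIs scaled to a common total, after TMM scaling. Young Marf-mut replicate 3 stood apart. Its counts differed from those of the other young Marf-mut pools by a chi-square of 10.5 and 10.8 per degree of freedom, while the other pairs within the 2 groups gave 3.27 to 5.6, and it had the highest TMM factor of the series (1.145). The list counts that it moves by more than 1 gene are given with and without it. Clock markers were present in all 6 pools (tim at 613 to 671 CPM in old and 718 to 788 CPM in young Marf-mut). Summed levels of 4 pan-neuronal genes were 2130 to 2210 CPM in old and 2090 to 2240 CPM in young Marf-mut. Of the markers of other cells, 10 glial genes summed to 1070, 906 and 833 CPM in old and 677, 517 and 610 CPM in young Marf-mut, and the 2 ages did not overlap. Photoreceptor, fat body and hemocyte, and muscle markers summed to at most 88, 57.9 and 18.7 CPM in any Marf-mut pool.

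Of 7204 genes tested, 244 (3.39%) changed between old and young Marf-mut, 189 higher and 55 lower in old flies (edgeR quasi-likelihood F test, adjusted p under 0.05). The median log2 change over all tested genes was -0.02. In all 244 the 3 old libraries lay wholly above or below the 3 young ones, which held for 1509 (20.9%) of all tested genes. Without young Marf-mut replicate 3 the count was 727 of 7288 tested genes (419 higher, 308 lower), and 227 of the 244 were among them. List counts given below without that library stand beside this larger count. Leaving out old Marf-mut replicate 1, 2 or 3, or young replicate 1, left 105, 140, 132 and 133 calls. Of 53 called genes named by rule here, 28 passed in every single-library omission.

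Marf itself did not pass the test. It stood at 106, 119 and 122 CPM in old Marf-mut and 103, 108 and 144 CPM in young Marf-mut (log2 change -0.06, SE 0.14, adjusted p = 0.886), and the ages overlapped. Marf lies on chromosome X from 6365949 to 6370924 (dm6). A transcript level does not report whether the gene was cut or the protein lost. Drp1 (0.03) and Opa1 (-0.05) did not pass either. Of 9 tested genes of mitochondrial dynamics and transport, 1 passed: milt, the adaptor that links mitochondria to kinesin, rose to 206, 198 and 179 CPM in old Marf-mut, against 141, 130 and 158 CPM in young (log2 0.42, SE 0.11, adjusted p = 0.0466). That call was near the threshold and was lost in 5 of 6 single-library omissions. None of 20 mitophagy and autophagy genes passed, Pink1 (0.12) and park (-0.18) included, and the list median was 0.01.

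None of the 10 core clock genes passed the test at this one time of day. The list median was -0.11, and 8 of the 10 estimates were below 0. The repressor gene tim stood at 671, 613 and 630 CPM in old Marf-mut and 788, 718 and 782 CPM in young Marf-mut, with no overlap (log2 -0.27, SE 0.12, adjusted p = 0.304). Its partner per stood at 63.6, 48.1 and 109 CPM in old and 112, 68 and 144 CPM in young Marf-mut, which overlapped (log2 -0.57, SE 0.42, adjusted p = 0.597). The kinase gene dco had a log2 change of -0.69 (adjusted p = 0.253). Clk, the activator, had 42.9, 26.9 and 34.1 CPM in old and 30.7, 32.1 and 26.6 CPM in young Marf-mut (log2 0.21, SE 0.21, adjusted p = 0.682). In Cas9 neurons Clk was higher in old flies, at 46.3, 47.9 and 49.7 CPM against 23.5, 24.7 and 23.9 CPM in young (log2 1.01, SE 0.19, adjusted p = 0.00769). The difference of the 2 changes in Clk was -0.79 (SE 0.27, adjusted p = 0.294) and did not pass. The remaining members, cyc (-0.33), vri (-0.11), Pdp1 (-0.11), cwo (-0.04), sgg (0.00) and cry (0.09), were within 0.33 of 0.

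Neuropeptide genes changed in both directions. NPF, the fly neuropeptide F, fell to 255, 115 and 144 CPM in old Marf-mut, against 2160, 2470 and 1710 CPM in young Marf-mut, and no library of one age came near the other. The fall was 12.5-fold (log2 -3.64, SE 0.30, adjusted p = 0.000253). The NPF gene lies on chromosome 3R from 16609220 to 16611325. In Cas9 neurons NPF was at 2680, 2260 and 2040 CPM in old and 51.7, 1680 and 2490 CPM in young flies, so 1 of 3 pools of the young Cas9 suspension held less NPF than any old Marf-mut pool. The difference of the changes was -4.36 (SE 1.42, adjusted p = 0.339) and did not pass. In pooled neurons, fewer NPF cells in a pool and less NPF RNA per cell cannot be told apart. The call held in every single-library omission and was lost when all 24 libraries shared 1 estimate of spread (adjusted p = 0.225).

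Pdf, the main output peptide of the ventral lateral neurons, rose to 18500, 17400 and 13900 CPM in old Marf-mut, against 5710, 6620 and 8520 CPM in young Marf-mut. The groups did not overlap, and the rise was 2.37-fold (log2 1.24, SE 0.22, adjusted p = 0.00303). In Cas9 neurons Pdf was at 10700, 10500 and 13200 CPM in old and 7250, 14300 and 13300 CPM in young flies (log2 0.00, adjusted p = 0.995). The difference between genotypes was 1.26 (SE 0.31, adjusted p = 0.113). Leaving out old replicate 1 or young replicate 1 ended the Pdf call (adjusted p = 0.0697 and 0.0614), at log2 changes of 1.16 and 1.12, as did the fit of all 24 libraries (0.0824). Of 13 clock neuropeptide genes tested, Pdf was the 1 rise and NPF the 1 fall, and the list median was 0.01. ITP stood at 3900, 2510 and 4060 CPM in old and 2110, 2920 and 1530 CPM in young Marf-mut, which overlapped (adjusted p = 0.19). The short neuropeptide gene sNPF (log2 -0.20, adjusted p = 0.684) was at 848, 690 and 475 CPM in old and 884, 624 and 774 CPM in young Marf-mut.

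Among 15 tested peptide hormone genes of other neurosecretory cells, 3 rose and none fell in Marf-mut, with a list median of 1.51. In Cas9 none of 12 tested members passed (median 0.34), and in Opa1-mut none of 11 rose and 1 fell (median 0.72). Among all tested genes 2.62% were called higher in Marf-mut. Tk, the tachykinin precursor, rose to 539, 537 and 600 CPM in old Marf-mut, against 82.4, 157 and 92.1 CPM in young (log2 2.34, SE 0.21, adjusted p = 0.000489). The 2 ages were far apart, and in Cas9 the values were 827, 631 and 752 CPM in old and 103, 231 and 115 CPM in young (log2 2.32, adjusted p = 0.0744). Over the 8 suspensions of the series, with genotype as a term, the rise of Tk with age was 2.21 (SE 0.14, adjusted p = 0.000835). Mip, the myoinhibitory peptide gene, rose to 1350, 2410 and 1240 CPM in old Marf-mut, against 605, 589 and 401 CPM in young (log2 1.64, SE 0.27, adjusted p = 0.0103). Without young replicate 2 or 3 the Mip call was lost (adjusted p = 0.0557 and 0.178). Ilp3, an insulin-like peptide gene, rose by less (log2 0.67, SE 0.17, adjusted p = 0.0391). That call ended in 5 of 6 single-library omissions. In Cas9 Mip changed by -0.86 (adjusted p = 0.789) and Ilp3 by -0.53 (adjusted p = 0.781), and neither passed. The test of the difference between Marf-mut and Cas9 called none of the 15 genes of this list. With all 24 libraries in 1 fit Tk, Mip and Ilp3 missed the threshold (adjusted p = 0.0605, 0.518 and 0.404).

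Several peptide genes varied widely between pools of 1 suspension. Hug (hugin) stood at 280, 4680 and 4680 CPM in old and 3440, 2980 and 3150 CPM in young Marf-mut. Dh44, a diuretic hormone gene, stood at 2500, 434 and 2390 CPM in old and 270, 409 and 391 CPM in young Marf-mut. Dsk (drosulfakinin) had 4290, 520 and 2270 CPM in old and 17.5, 29.8 and 12.9 CPM in young Marf-mut, with no overlap, yet missed the threshold (adjusted p = 0.072). Crz (corazonin) had 36.5, 856 and 10.1 CPM in old and 2420, 2410 and 2170 CPM in young Marf-mut (adjusted p = 0.52). Old Marf-mut replicate 1 was thus low in Hug, and old replicate 2 was low in Dh44 and Dsk and high in Crz. Without old replicate 2 the fit called Dsk (log2 7.39, adjusted p = 3.21e-05), Dh44 (2.76, adjusted p = 8.42e-06) and Crz (-6.70, adjusted p = 0.000177). These genes, and those of the next sentence, were singled out after their values were seen. The glycoprotein hormone subunit gene Gpb5 rose to 801, 620 and 849 CPM in old Marf-mut, against 263, 296 and 409 CPM in young (log2 1.21, SE 0.17, adjusted p = 0.000962), while its partner Gpa2, at 716, 536 and 777 CPM in old and 97.8, 21.4 and 425 CPM in young, did not pass (adjusted p = 0.517).

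**Figure D1:**
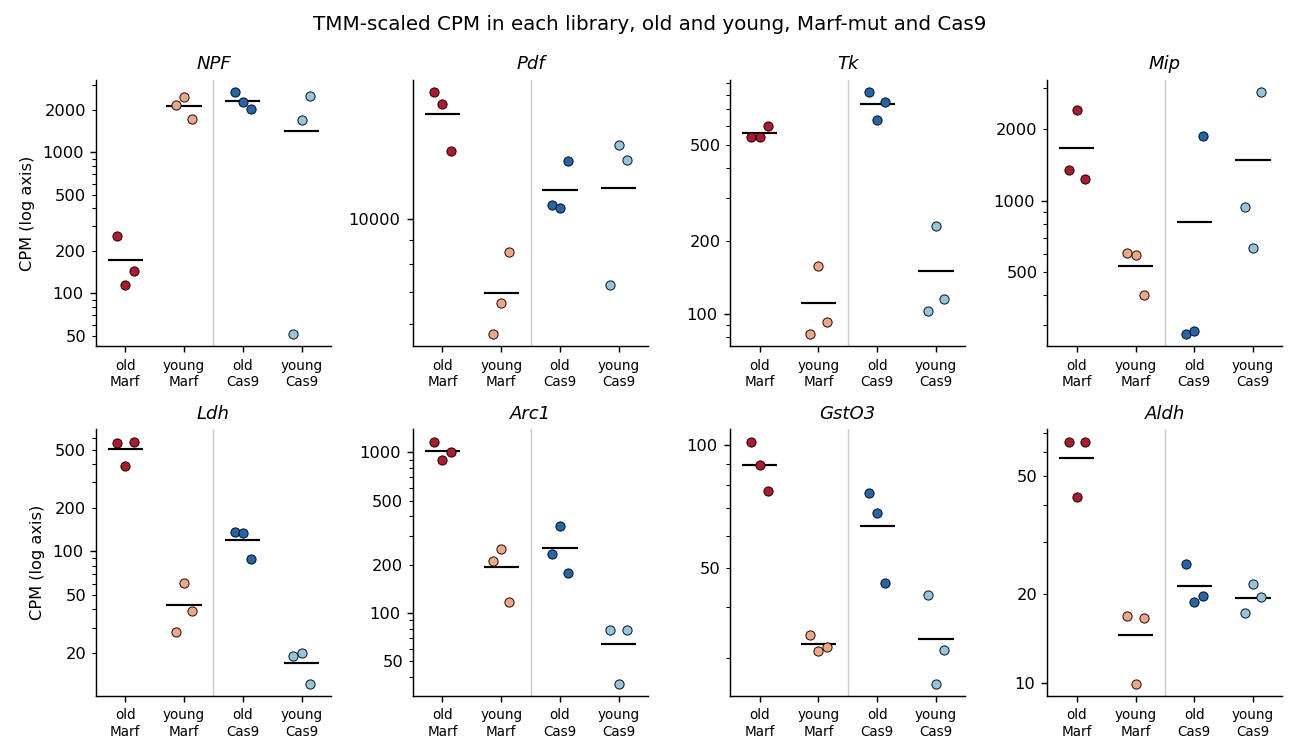
Level of 8 genes in each library (points) with the mean of the 3 libraries (bar), as TMM-scaled CPM on a log axis, for old and young Marf-mut and old and young Cas9. NPF is low in old Marf-mut (115 to 255 CPM) and in 1 young Cas9 pool (51.7 CPM), while Tk, Ldh and Arc1 separate by age in both genotypes and Aldh separates by age in Marf-mut (42.3 to 65.3 CPM in old, 9.93 to 16.8 CPM in young).

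Values of 5 peptide receptor genes follow. The NPF receptor gene NPFR (log2 -0.39, adjusted p = 0.503), the PDF receptor gene Pdfr (-0.19, adjusted p = 0.521) and the tachykinin receptor gene TkR99D (-0.25, adjusted p = 0.772) did not pass. AstC-R2, a receptor for allatostatin C, rose to 96.5, 74.4 and 83.2 CPM in old Marf-mut, against 40.5, 38.2 and 36.9 CPM in young (log2 1.12, SE 0.15, adjusted p = 0.000489). These 4 receptors were picked after their values were seen. Lgr1, the gene of the receptor for the Gpa2 and Gpb5 hormone, fell to 10.7, 12.2 and 14 CPM in old Marf-mut, against 29.3, 26 and 42.7 CPM in young (log2 -1.44, SE 0.26, adjusted p = 0.00366). The Gpb5 rise and the Lgr1 fall both held in every single-library omission, and that of Gpb5 was lost with all 24 libraries in 1 fit (adjusted p = 0.413).

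Genes for the synthesis of amines were among the falls. The gene ple, tyrosine hydroxylase and the rate-limiting enzyme of dopamine synthesis, fell to 232, 229 and 202 CPM in old Marf-mut, against 352, 513 and 387 CPM in young (log2 -0.93, SE 0.13, adjusted p = 0.000671). Tdc2, the neuronal tyrosine decarboxylase that makes tyramine, fell to 321, 246 and 217 CPM in old Marf-mut, against 543, 476 and 480 CPM in young (log2 -0.95, SE 0.13, adjusted p = 0.000578). The ages did not overlap for either gene. Tdc2 also fell in Cas9, to 267, 386 and 358 CPM in old flies against 708, 625 and 637 CPM in young (log2 -0.94, adjusted p = 0.00036), and over the 8 suspensions (log2 -0.91, SE 0.08, adjusted p = 0.00103). For ple the Cas9 change was -0.42 (adjusted p = 0.369), and the difference of the changes, -0.49, did not pass (adjusted p = 0.562). With all 24 libraries in 1 fit ple missed the threshold in Marf-mut (adjusted p = 0.6).

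A list of 20 amine synthesis, transport and receptor genes was drawn up after these values were seen. Of its 18 tested members, 4 fell and 1 rose in Marf-mut, and the median was -0.40. In Opa1-mut 4 fell and 1 rose, with a median of -0.35, and in Cas9 1 fell and none rose, with a median of 0.00. Among all tested genes 3.39% were called in Marf-mut, 12.4% in Opa1-mut and 2.45% in Cas9. Beside ple and Tdc2, Pu, the GTP cyclohydrolase that supplies the cofactor of tyrosine hydroxylase, fell to 166, 176 and 174 CPM in old Marf-mut, against 259, 215 and 257 CPM in young (log2 -0.52, SE 0.10, adjusted p = 0.00791). The dopamine receptor gene Dop2R fell to 44.3, 40.4 and 39.7 CPM in old, against 58.7, 61.9 and 72.2 CPM in young Marf-mut (log2 -0.66, SE 0.16, adjusted p = 0.0297), and did not pass in 5 of 6 single-library omissions, young replicate 3 among them (adjusted p = 0.0585). The Pu call ended without old replicate 1 or 3 or young replicate 1 (adjusted p = 0.0856, 0.0527 and 0.0657) and with all 24 libraries in 1 fit (0.0815). Octbeta3R, an octopamine receptor gene, was the rise (log2 0.54, adjusted p = 0.0498). The dopamine transporter gene DAT (log2 -0.61, adjusted p = 0.0537) and the vesicular monoamine transporter gene Vmat (log2 -0.54, adjusted p = 0.19) did not pass, though DAT did without young replicate 1 (log2 -0.78, adjusted p = 0.00499).

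Of 20 genes of synaptic release, VGlut alone passed, while without young replicate 3 the list had 2 rises and no fall. This vesicular glutamate transporter gene fell to 243, 271 and 192 CPM in old Marf-mut, against 462, 313 and 349 CPM in young (log2 -0.69, SE 0.16, adjusted p = 0.0316). The call was lost without young replicate 1 or 3 or without old replicate 1 or 3 (adjusted p = 0.0828, 0.246, 0.118 and 0.113). Gad1, the enzyme of GABA synthesis and again a gene chosen after its value was seen, rose to 620, 639 and 752 CPM in old Marf-mut, against 287, 366 and 482 CPM in young (log2 0.81, SE 0.16, adjusted p = 0.013). It also rose in Cas9 (log2 1.05, adjusted p = 0.0287). Without old replicate 3 or young replicate 1 or 2 the adjusted p of Gad1 in Marf-mut was 0.0819, 0.0718 and 0.0581. Core release genes such as brp (-0.06), nSyb (-0.02) and Syt1 (0.03) stood near 0. Of 27 ion channel and transmitter receptor genes, 1 passed with all libraries and 2 without young replicate 3. Among all genes 727 of 7288 passed without that library, so neither list stood out in that setting. The first was Irk2, an inward rectifier potassium channel gene, which rose to 52.2, 30.8 and 36.9 CPM in old Marf-mut, against 20.3, 20.6 and 23.2 CPM in young (log2 0.87, SE 0.22, adjusted p = 0.0426). Irk2 missed the threshold without old replicate 1 or 3 or young replicate 1 or 2 (adjusted p = 0.277, 0.106, 0.152 and 0.0989).

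**Figure D2:**
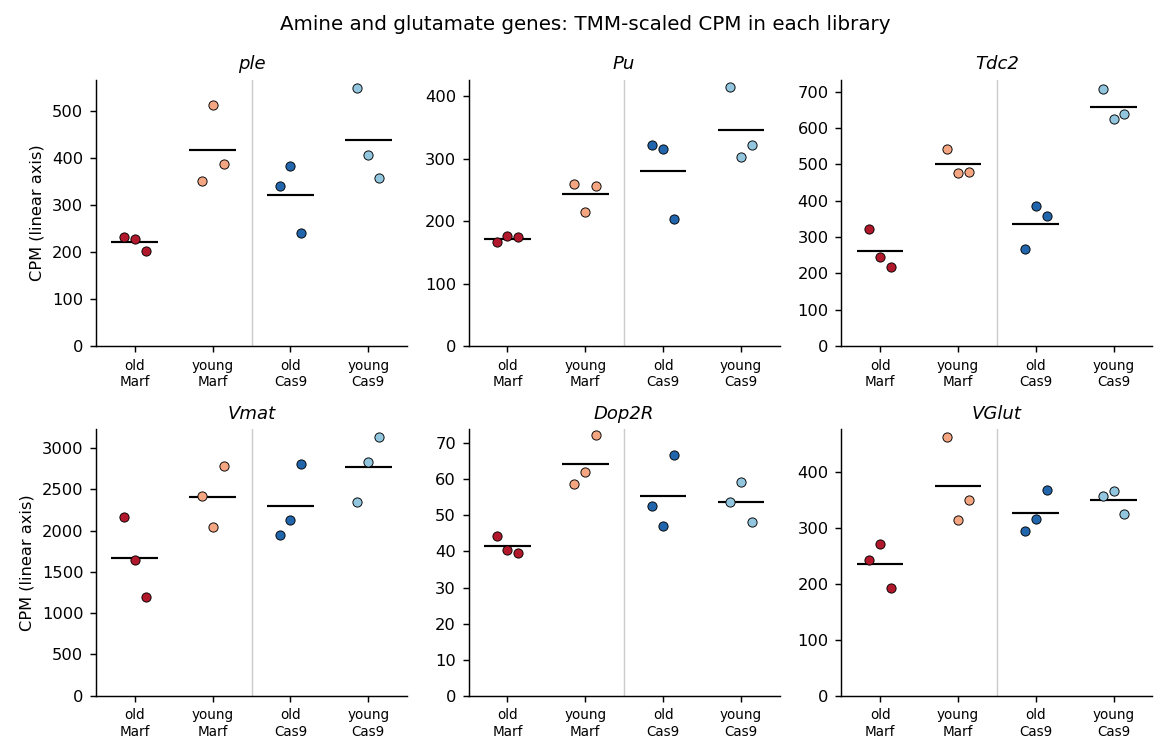
Level of 6 amine and glutamate genes in each library (points) with the mean (bar), as TMM-scaled CPM on a linear axis from 0. Old Marf-mut lies below young Marf-mut without overlap for ple, Pu, Tdc2, Dop2R and VGlut, while Vmat overlaps (1200 to 2170 CPM in old, 2040 to 2780 CPM in young), and Tdc2 separates by age in Cas9 too.

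Several genes of sugar metabolism rose. Of 17 tested glycolysis genes, 7 rose and none fell in Marf-mut, with a list median of 0.46 against -0.02 for all genes. In Cas9 4 rose, with a median of 0.33, and in Opa1-mut 13 rose, with a median of 0.58. Among all tested genes 2.62% were called higher in Marf-mut, 2.13% in Cas9 and 7.62% in Opa1-mut. Ldh, lactate dehydrogenase, rose to 555, 387 and 567 CPM in old Marf-mut, against 27.9, 61.1 and 39 CPM in young, a change of 11.8-fold (log2 3.57, SE 0.27, adjusted p = 0.000781). No library of one age came near the other. Ldh lies on chromosome 3L from 6259105 to 6262694. It rose as well in Cas9, to 136, 134 and 88.1 CPM in old flies against 19.3, 20.2 and 12.4 CPM in young (log2 2.83, adjusted p = 3.85e-07), and the difference between the genotypes was 0.75 (SE 0.43, adjusted p = 0.604).

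Pfk, phosphofructokinase and a main control point of glycolysis, rose to 263, 232 and 295 CPM in old Marf-mut, against 121, 129 and 161 CPM in young (log2 0.92, SE 0.12, adjusted p = 0.000489). Pgi, the next enzyme upstream, rose to 387, 302 and 410 CPM in old, against 213, 243 and 215 CPM in young Marf-mut (log2 0.70, SE 0.12, adjusted p = 0.0024). Treh, which splits the blood sugar trehalose, rose to 168, 124 and 156 CPM in old, against 81, 63.4 and 92.1 CPM in young Marf-mut (log2 0.89, SE 0.15, adjusted p = 0.00271). None of these 3 overlapped between ages. Hex-A (0.48), Ald1 (0.58) and Tpi (0.46) also rose, though each of these 3 calls ended in 4 of 6 single-library omissions, the first of them old replicate 1 (adjusted p = 0.181, 0.188 and 0.209). The genes of the later steps did not pass: Gapdh1 (0.09), Gapdh2 (0.46, adjusted p = 0.132), Pgk (0.13), Pglym78 (0.38, adjusted p = 0.14), Eno (0.30) and PyK (-0.09). Without young replicate 3, 10 of the 17 rose (median 0.36), while 419 of 7288 genes rose among all tested. Glia are a main site of glycolysis in the fly brain, and glial genes were also higher in old Marf-mut. Their part in these rises was not tested.

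Some stress genes rose. Of 17 tested ATF4 targets, the genes of the integrated stress response, 3 rose and none fell in Marf-mut (median 0.26): Ldh, Aldh and Xrp1. In Cas9 2 of 17 rose (median 0.12), and in Opa1-mut 9 of 17 rose (median 0.46). Among all tested genes 2.62% were called higher in Marf-mut, 2.13% in Cas9 and 7.62% in Opa1-mut. Aldh, a mitochondrial aldehyde dehydrogenase, rose to 65, 42.3 and 65.3 CPM in old Marf-mut, against 16.8, 9.93 and 16.6 CPM in young (log2 1.95, SE 0.24, adjusted p = 0.000208). In Cas9 it stood at 25.1, 18.7 and 19.7 CPM in old and 17.2, 21.5 and 19.5 CPM in young. The difference of the changes was 1.81 (SE 0.35, adjusted p = 0.0222), and it missed the threshold in 6 of 12 single-library omissions, with adjusted p up to 0.0884 without old Cas9 replicate 3. Xrp1, a stress-induced transcription factor, rose in Marf-mut (log2 0.46, SE 0.11, adjusted p = 0.0305) and in Cas9 (0.48, adjusted p = 0.0157). Its dimer partner Irbp18, named after its value was seen, rose to 147, 123 and 140 CPM in old, against 76.1, 105 and 77.2 CPM in young Marf-mut (log2 0.67, SE 0.14, adjusted p = 0.0123). The ATF4 gene crc (0.33) and its targets Thor (0.32) and Nmdmc (0.74, adjusted p = 0.0805) did not pass. None of 16 genes of the endoplasmic reticulum unfolded protein response passed (median 0.10), and of 11 mitochondrial chaperone and protease genes Hsc70-5, the matrix Hsp70, was the 1 rise (0.42, adjusted p = 0.0441). The calls of Xrp1 and Hsc70-5 ended in 5 of 6 single-library omissions (without old replicate 1, adjusted p = 0.176 and 0.138), and that of Irbp18 in 3 (without old replicate 1, 0.0924).

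Of 19 tested antioxidant genes, GstO3 passed, and without young replicate 3, 3 rose and 1 fell. Among all genes 727 of 7288 passed without that library. GstO3, an omega-class glutathione transferase gene, rose to 102, 89.2 and 77.1 CPM in old Marf-mut, against 34.2, 31.3 and 31.9 CPM in young (log2 1.44, SE 0.16, adjusted p = 0.000175), and rose in Cas9 too (0.94, adjusted p = 0.0256). Sod1 (0.03), Sod2 (-0.16) and Cat (0.03) did not pass. The outer mitochondrial membrane protein gene Tspo rose to 277, 212 and 262 CPM in old Marf-mut, against 124, 130 and 97.5 CPM in young (log2 1.10, SE 0.13, adjusted p = 0.000175). Tsf1, the iron carrier transferrin, rose to 691, 538 and 527 CPM in old, against 338, 336 and 329 CPM in young Marf-mut (log2 0.79, SE 0.12, adjusted p = 0.00124). Tspo and Tsf1 were chosen after their values were seen, and both held in every single-library omission.

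Heat shock genes leaned in opposite directions in the 2 genotypes. Of 22 tested, 20 had log2 changes below 0 in Marf-mut (median -0.26), while in Cas9 20 of 22 were above 0 (median 0.26), and in Opa1-mut the median was -0.06. In Marf-mut 3 fell (Hsp70Ba, Hsp70Bbb, Hsp27) and 1 rose (l(2)efl), and in Cas9 3 rose and none fell. Without young replicate 3, 7 fell and none rose in Marf-mut, while 308 of 7288 genes fell among all tested. In the fits with all libraries 0.763% of all genes were called lower in Marf-mut and 2.13% higher in Cas9. Hsp70Ba, an inducible Hsp70, fell to 118, 133 and 180 CPM in old Marf-mut, against 248, 265 and 246 CPM in young (log2 -0.82, SE 0.13, adjusted p = 0.00217). In Cas9 it stood at 326, 466 and 487 CPM in old and 265, 333 and 245 CPM in young flies (log2 0.62, adjusted p = 0.0756). The difference of these changes was -1.43 (SE 0.24, adjusted p = 0.0222). For Hsp70Bbb the difference was -1.58 (SE 0.27, adjusted p = 0.0222). These calls ended in 7 and 6 of 12 single-library omissions, young Cas9 replicate 3 among both (adjusted p = 0.0877). The 6 Hsp70 copies are near-identical, so reads may be split between them, and values of single copies are uncertain. Their median change was -0.87 in Marf-mut, -0.83 in Opa1-mut (5 of 6 below 0 in each) and 0.47 in Cas9. The most abundant copy, Hsp70Bb, averaged 1840 CPM in old and 1600 CPM in young Marf-mut (log2 0.19, adjusted p = 0.627). Summed over the 6 copies, the level was 2860, 2590 and 2970 CPM in old and 3000, 3430 and 2920 CPM in young Marf-mut, which overlapped, and 5230, 5740 and 6120 CPM in old and 3580, 4240 and 3870 CPM in young Cas9, which did not. With all 24 libraries in 1 fit the Marf-mut falls of Hsp70Ba and Hsp70Bbb missed the threshold (adjusted p = 0.0832 and 0.189).

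Hsp27, a small heat shock protein gene, fell to 274, 302 and 295 CPM in old Marf-mut, against 439, 421 and 448 CPM in young (log2 -0.60, SE 0.10, adjusted p = 0.00241), and stood at 624, 650 and 570 CPM in old and 617, 561 and 501 CPM in young Cas9. The difference between the genotypes was -0.74 (SE 0.15, adjusted p = 0.0359), and it passed in 3 of 12 single-library omissions (adjusted p up to 0.176, without old Marf-mut replicate 1). The small heat shock gene l(2)efl ran the other way, at 94.4, 77 and 97.7 CPM in old and 46.1, 13 and 21.6 CPM in young Marf-mut (log2 1.74, SE 0.34, adjusted p = 0.0358). Its call ended without young replicate 3 (adjusted p = 0.18) and without any 1 of the 3 old libraries (adjusted p = 0.148, 0.0635 and 0.115). The cytosolic chaperone gene Hsp83 (0.00), Hsp68 (-0.41, adjusted p = 0.088) and DnaJ-1 (-0.37, adjusted p = 0.0629) did not pass.

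**Figure D3:**
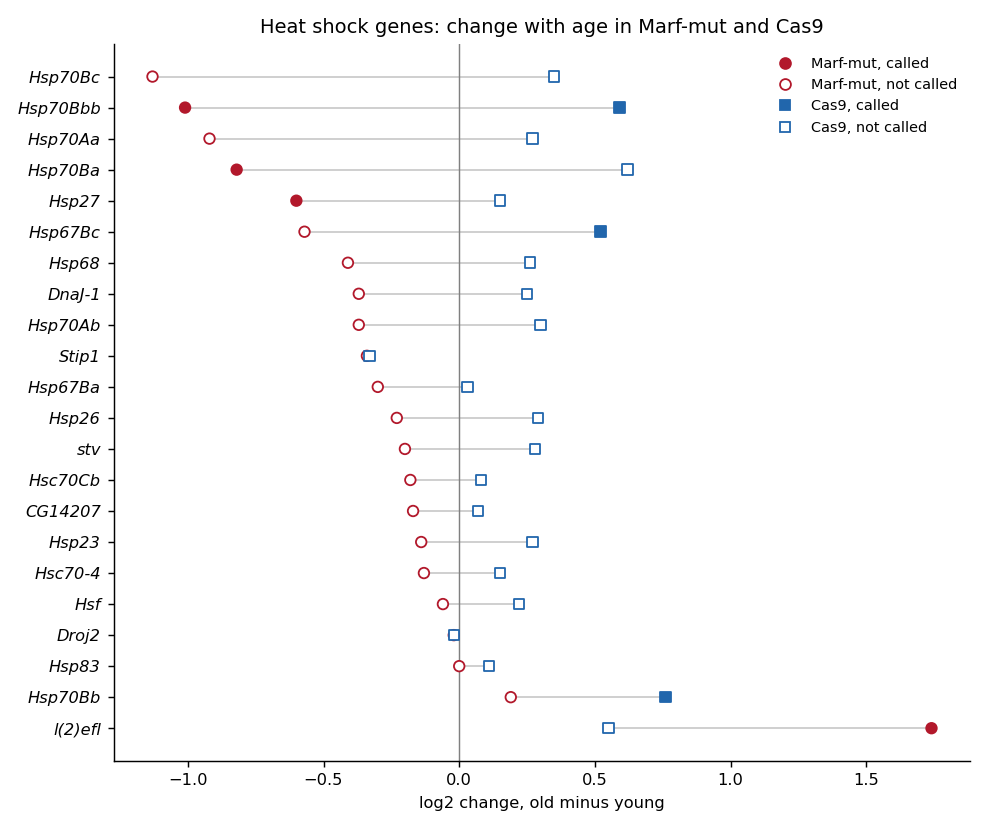
log2 change between old and young flies of each of 22 heat shock genes (rows), in Marf-mut (circles) and Cas9 (squares), filled where the adjusted p is under 0.05. The 6 Hsp70 copies have a median of -0.87 in Marf-mut and 0.47 in Cas9, and l(2)efl (1.74) and Hsp70Bb (0.19) are the 2 genes above 0 in Marf-mut.

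Genes of the respiratory chain leaned downward without passing the test. Of 32 tested nuclear complex I genes, 30 had log2 changes below 0 (median -0.23), as did 25 of 26 genes of complexes II to V (median -0.23) and 66 of 72 mitochondrial ribosomal protein genes (median -0.18). In Cas9 the medians of these 3 lists were -0.02, 0.07 and -0.12. In Opa1-mut they were -0.30, -0.25 and -0.19, with 20, 13 and 12 genes called lower. Among all tested genes 4.78% were called lower in Opa1-mut and 0.763% in Marf-mut. The 13 protein genes of mitochondrial DNA had a median of -0.29 in Marf-mut, 12 of them below 0, -0.78 in Opa1-mut, where 9 fell, and 0.21 in Cas9. Among all these genes 1 passed: COX7AL, a cytochrome oxidase subunit gene, rose to 44.3, 39.1 and 50.3 CPM in old Marf-mut, against 16.1, 22.9 and 13.7 CPM in young (log2 1.37, SE 0.23, adjusted p = 0.00184).

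How many of these genes passed depends on young Marf-mut replicate 3, while the lean was there with and without it. That pool held 3.31% of its UMIs in mitochondrial DNA protein genes, while the other young pools held 5.14% and 5.10%, and the old Marf-mut pools held 3.87%, 3.91% and 3.13%. COX1 stood at 6140, 6170 and 4800 CPM in old and 7440, 7700 and 4610 CPM in young Marf-mut (log2 -0.22, adjusted p = 0.675). Without that library 21 of 32 complex I genes, 21 of 26 genes of complexes II to V, 17 of 72 mitochondrial ribosomal protein genes and 7 of 13 mitochondrial DNA protein genes fell, with medians of -0.38, -0.38, -0.30 and -0.51. Among all genes 308 of 7288 fell in that setting. The small mitochondrial ribosomal RNA, listed as srRNA, fell to 191, 142 and 151 CPM in old Marf-mut, against 323, 315 and 290 CPM in young (log2 -0.95, SE 0.12, adjusted p = 0.000175). With all 24 libraries in 1 fit that call was lost (adjusted p = 0.478). It was chosen after its value was seen, and a poly(A) capture samples ribosomal RNA only in part. None of 20 TCA cycle genes passed (median -0.13), and without young replicate 3, 1 rose and 1 fell (median -0.15).

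Cytosolic ribosomal protein genes leaned the other way. Of 84 tested in Marf-mut, 79 had log2 changes above 0 (median 0.33), and none passed. Without young Marf-mut replicate 3 the median was 0.17, and 32 rose and 1 fell, while 419 of 7288 genes rose among all tested. In Cas9 10 of 84 rose (median 0.36), and in Opa1-mut 30 of 85 rose (median 0.25). Over the 8 suspensions, a fit that the Marf-mut sums enter, 61 of 85 rose and none fell (median 0.36). Among all genes of that fit 2.82% were called higher. Of 41 tested translation initiation and elongation factors, a list written after values were seen, 6 rose and none fell in Marf-mut (median 0.19). In Opa1-mut 19 rose and 2 fell (median 0.30), and none passed in Cas9 (median 0.06). Among all tested genes 7.62% were called higher in Opa1-mut, 2.62% in Marf-mut and 2.13% in Cas9. eIF6, which keeps the ribosomal subunits apart, rose to 108, 83.4 and 92.1 CPM in old Marf-mut, against 47.5, 51.9 and 41.9 CPM in young (log2 1.0, SE 0.15, adjusted p = 0.000962). eIF3f1, a subunit of an initiation complex, rose to 385, 368 and 383 CPM in old, against 285, 288 and 258 CPM in young Marf-mut (log2 0.44, SE 0.10, adjusted p = 0.0196), and differed from its change in Cas9 by 0.67 (SE 0.13, adjusted p = 0.0222), a call that ended in 9 of 12 single-library omissions (adjusted p up to 0.103, without old Cas9 replicate 3). The growth regulator Myc, chosen after its value was seen, rose to 72.9, 57.1 and 78.2 CPM in old, against 37, 30.6 and 29.9 CPM in young Marf-mut (log2 1.09, SE 0.18, adjusted p = 0.00163). None of 33 proteasome genes passed (median -0.04).

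**Figure D4:**
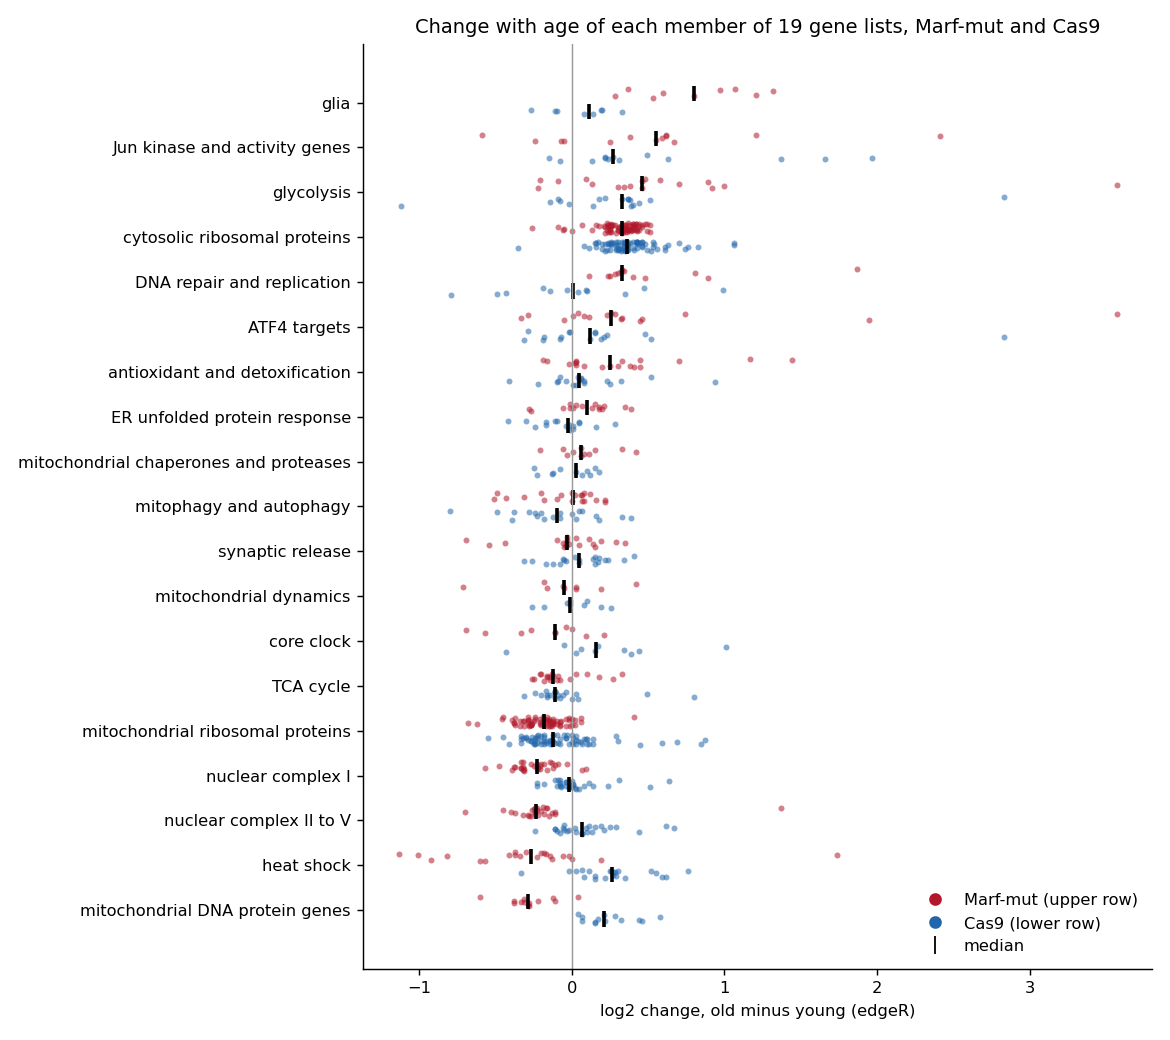
log2 change between old and young flies of each tested member (points) of 19 gene lists, with list medians (black ticks), in Marf-mut (upper row of each list) and Cas9 (lower row). Glia (median 0.80 and 0.11) and glycolysis (0.46 and 0.33) lie to the right, and heat shock (-0.26 and 0.26) and mitochondrial DNA protein genes (-0.29 and 0.21) lie on opposite sides in the 2 genotypes.

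Both Arc genes, which encode capsid-forming proteins and are induced by neuronal activity, rose. Arc1 rose to 1170, 893 and 1010 CPM in old Marf-mut, against 212, 249 and 117 CPM in young (log2 2.41, SE 0.26, adjusted p = 0.00124). Arc2 rose to 149, 128 and 131 CPM in old, against 49.6, 67.2 and 58.5 CPM in young Marf-mut (log2 1.21, SE 0.14, adjusted p = 0.000175). The pseudogene CR10102, which lies between them on chromosome 2R (14360433 to 14361780, with Arc1 from 14357927 to 14360297 and Arc2 from 14361924 to 14362825), rose to 171, 130 and 149 CPM in old, against 20.3, 32.8 and 12 CPM in young Marf-mut (log2 2.87, SE 0.25, adjusted p = 0.000175). No library of one age reached the other for any of the 3. How reads shared by these neighbours were assigned is not given in the sources used here, so the 3 values may not be independent. In Cas9 Arc1 changed by 1.97 (adjusted p = 0.0982) and Arc2 by 0.31 (adjusted p = 0.513). Over the 8 suspensions Arc1 rose by 2.10 (SE 0.11, adjusted p = 8.19e-05). Of 13 tested Jun kinase and activity genes, Arc1, Arc2 and puc, the phosphatase that is a Jun kinase target (0.62, adjusted p = 0.0466), rose, with a list median of 0.55. Without young replicate 3 the count was 8 and the median 0.71, while 419 of 7288 genes rose among all tested. In the fits with all libraries 2 of 13 rose in Cas9 (median 0.27) and 6 of 13 in Opa1-mut (median 0.34). Among all tested genes 2.62% were called higher in Marf-mut, 2.13% in Cas9 and 7.62% in Opa1-mut. The puc call ended in 5 of 6 single-library omissions (without old replicate 1, adjusted p = 0.268). The immediate early genes Hr38 (0.62, adjusted p = 0.146) and sr (0.55, adjusted p = 0.0999) did not pass in Marf-mut, and both rose in Cas9 (1.66 and 1.37).

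Other rises among the named genes were PCNA, the replication clamp (1.87, adjusted p = 0.0308), and Ku80 of DNA end joining (0.89, adjusted p = 0.0401), the 2 called members of 13 DNA repair genes (median 0.33, all 13 above 0). Without old replicate 1 neither passed (adjusted p = 0.14 and 0.2), and PCNA passed in 2 and Ku80 in 1 of 6 single-library omissions. Among all tested genes in Marf-mut 2.62% were called higher and 47.3% were above 0. In Opa1-mut 5 of 13 DNA repair genes rose, with all 13 above 0 (median 0.45). In Cas9 none of 12 passed, with 6 above 0 (median 0.01). dgt2, of the augmin complex that branches spindle microtubules, rose to 39.3, 24.4 and 29 CPM in old Marf-mut, against 11.2, 3.82 and 3.32 CPM in young (log2 2.39, SE 0.38, adjusted p = 0.00186). ninaB, a carotenoid oxygenase, rose to 42.9, 30.8 and 33.5 CPM in old, against 11.2, 10.7 and 9.96 CPM in young Marf-mut (log2 1.74, SE 0.24, adjusted p = 0.000545). whe (3.41), snRNA:U6:96Ac (2.42), a copy of the U6 spliceosomal RNA whose near-identical copies make its value uncertain, Mur2B (2.12), the mitochondrial tRNA trnL2 (1.86), Gbp1 (1.82), mthl15 (1.64), CG14907 (2.95) and CG7130 (2.15) completed the rises. Those of trnL2, Gbp1 and mthl15 ended without young replicate 1 (adjusted p = 0.0614, 0.146 and 0.189), and they passed in only 2, 2 and 1 of 6 single-library omissions. Mur2B missed the threshold without old replicate 3 (adjusted p = 0.101). Further falls were the mitochondrial tRNA trnC (-2.26), the forkhead gene slp2 (-2.10), the zinc finger gene gl (-1.20), rdo (-1.18), GILT1 (-0.94), HIP-R (-0.87), lov (-0.85), Hrb87F (-0.82) and Rab32 (-0.81). Without old replicate 1 the falls of trnC, slp2, lov, Hrb87F and Rab32 missed the threshold (adjusted p = 0.103, 0.0822, 0.153, 0.131 and 0.0864). gl, known from photoreceptors and from a set of dorsal clock neurons, fell to 22.2, 42.3 and 40.2 CPM in old Marf-mut, against 102, 74.1 and 67.6 CPM in young (adjusted p = 0.00791). None of 7 tested immune genes and none of 16 lipid metabolism genes passed. Of the 2 transgene marker genes, y fell (-0.55, adjusted p = 0.00976) and w did not pass (0.22). The y call ended without old replicate 2 or 3 or young replicate 1 (adjusted p = 0.0721, 0.0563 and 0.0623) and with all 24 libraries in 1 fit (0.121).

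Some glial genes rose with age in this line. Of 9 tested glial markers, 3 rose in old Marf-mut (alrm 0.97, Gs2 0.60, Gat 0.80) and all 9 estimates were above 0 (median 0.80), with 6 rises without young replicate 3. In Opa1-mut 2 rose (median 0.30) and in Cas9 none passed (median 0.11). Among all tested genes 2.62% were called higher in Marf-mut, 7.62% in Opa1-mut and 2.13% in Cas9. Without young Marf-mut replicate 3, 419 of 7288 genes rose in Marf-mut. The 10 glial genes summed to 709 to 1210 CPM in old and 538 to 732 CPM in young Drp1-mut. alrm, an astrocyte gene, rose to 104, 101 and 78.2 CPM in old Marf-mut, against 45.4, 42 and 52.7 CPM in young (adjusted p = 0.00151). The glial transcription factor gene repo stood at 15.7, 7.06 and 10.1 CPM in old and 7.68, 3.06 and 4.56 CPM in young Marf-mut, which overlapped. Without old replicate 1 Gs2 and Gat missed the threshold (adjusted p = 0.127 and 0.23). Gs2 passed in 3 and Gat in 2 of 6 single-library omissions, and alrm held in every omission. With all 24 libraries in 1 fit none of the 3 passed (adjusted p = 0.0617 for alrm, 0.302 for Gs2 and 0.141 for Gat). Mdr65 was at 0 in old replicates 1 and 3 and young replicate 2, and moody was at 0 in young replicate 2. What share of the 189 rises came with these glial transcripts was not tested.

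A separate age difference appeared in Cyp4g1, a cytochrome P450 gene of oenocytes. It was at 0 in all 3 old Marf-mut pools and at 32.1, 37.4 and 123 CPM in young Marf-mut, at least 126-fold lower in old flies if the old group is set at 3 UMIs in all. With so uneven a young group it was not called in Marf-mut (adjusted p = 0.312). In Cas9 it stood at 3.14, 0 and 0 CPM in old and 4.18, 5.85 and 503 CPM in young flies. Over the 8 suspensions the fall was called (log2 -7.94, adjusted p = 3.57e-06), as was that of Cyp6g1, another P450 gene, at 0, 0 and 0.558 CPM in old and 2.79, 0.764 and 20.3 CPM in young Marf-mut. Young replicate 3 was the highest for both genes in Marf-mut. The long noncoding RNA gene lncRNA:CR45223 rose over the suspensions (log2 2.32, adjusted p = 9.23e-05), with 55.8, 81.5 and 66.5 CPM in old and 25.8, 18.3 and 9.54 CPM in young Marf-mut.

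The Marf-mut changes were set beside the same contrast in the other lines, which share no library with it. In Cas9 174 of 7089 genes (2.45%) changed, 151 higher and 23 lower. Of the 189 Marf-mut rises 39 were called rises in Cas9 (20.6% of the Marf-mut list and 25.8% of the Cas9 list), and of the 55 falls 6 were (10.9% and 26.1%). The Marf-mut falls had a median of -0.01 in Cas9, and 3 of them were called higher there. Across 7006 genes tested in both, which are not independent replicates, Pearson's r between the 2 changes was 0.28. In Opa1-mut, the line with guides against the inner membrane fusion gene, 893 of 7204 genes (12.4%) changed. Of the Marf-mut rises 98 were called rises there (51.9% of the Marf-mut list and 17.9% of the Opa1-mut list), and of the falls 25 were (45.5% and 7.27%), with r = 0.57 over 7045 genes. In Drp1-mut 49 of 6951 genes (0.705%) changed, 43 higher and 6 lower.

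The direct test of the difference between Marf-mut and Cas9 called 21 of 7385 genes (0.284%), 2 with a more positive and 19 with a more negative change in Marf-mut. The 2 were Aldh and eIF3f1. Among the 19, Ythdc1, a reader of RNA methylation, fell to 80.1, 89.8 and 90.5 CPM in old Marf-mut, against 163, 144 and 120 CPM in young, and rose to 144, 164 and 173 CPM in old Cas9, against 122, 112 and 104 CPM in young (difference -1.23, SE 0.19, adjusted p = 0.0082; 0.0624 without young Cas9 replicate 3). Cirl, the latrophilin receptor gene, fell to 249, 241 and 262 CPM in old Marf-mut, against 356, 345 and 366 CPM in young, while old Cas9 had 333, 382 and 373 CPM and young Cas9 301, 313 and 292 CPM (difference -0.78, SE 0.13, adjusted p = 0.0133; 0.0806 without young Cas9 replicate 3). The snRNA:7SK (-2.22) and the splicing regulator su(w[a]) (-0.81) also differed. This count ranged from 0 to 140 when single libraries were left out, with 0 without young Cas9 replicate 3 and 140 without young Marf-mut replicate 3. The test of Marf-mut against Opa1-mut called 0 of 7479 genes (0%), with 636 at an unadjusted p under 0.05, and DESeq2 called 6.

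**Figure D5:**
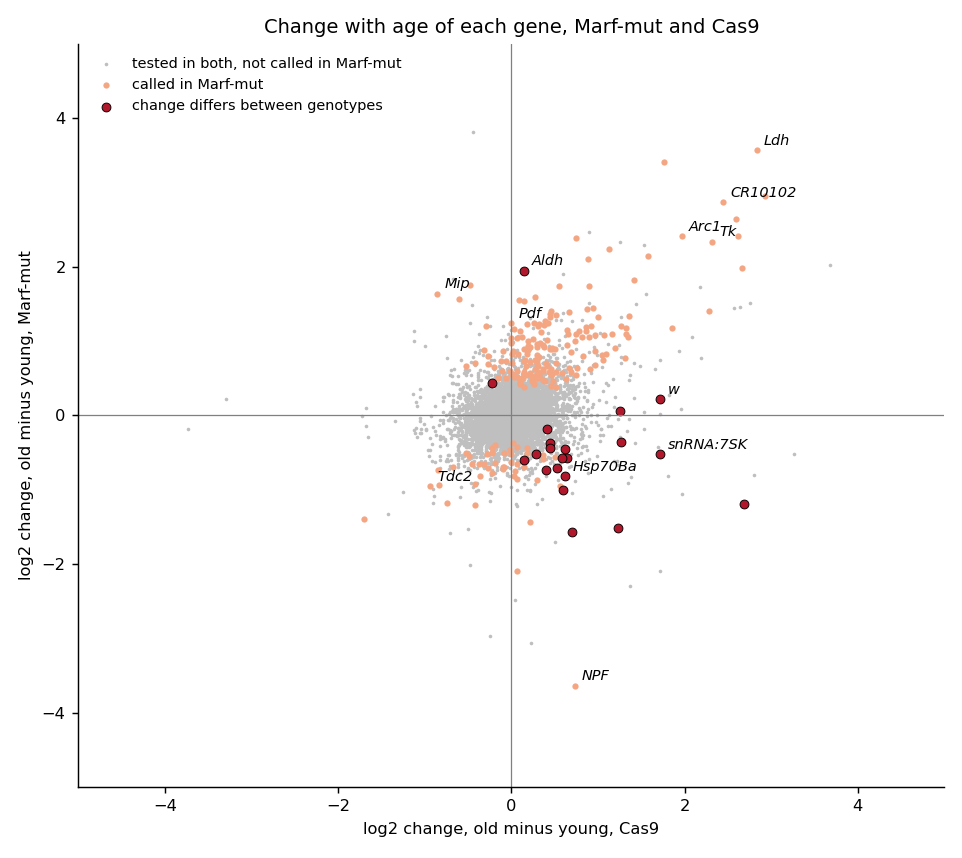
log2 change between old and young flies of each of 7005 genes in Cas9 (horizontal axis) and Marf-mut (vertical axis), with genes called in Marf-mut in orange and the 21 genes whose change differed between genotypes in dark red with an outline, and 1 further gene lies outside the axes. Ldh, Tk and Arc1 lie high in both, NPF lies low in Marf-mut (-3.64), and 19 of the 21 outlined genes lie below the diagonal.

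Age was also tested over the 8 suspensions of the series, 1 sum of UMIs for each genotype and age with genotype as a term and 3 residual degrees of freedom. It called 291 of 8195 genes (3.55%), 231 higher and 60 lower in old flies. Since the Marf-mut sums enter that fit, it was repeated without them, and 65 of 8150 genes (0.798%) were then called. In those 6 other suspensions 176 of 187 tested Marf-mut rises had a change above 0 (30 called), and 46 of 55 Marf-mut falls had a change below 0 (4 called). Among all 8150 genes of that fit 50.5% were above 0, 0.528% were called higher and 0.27% lower. CR10102, Arc1, Tk, CG14907 and Tdc2 were called in both versions. For NPF, Pdf and Mip the other suspensions gave -0.12, 0.12 and -0.55, none of them called.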

How the data were processed

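Smart-seq3 5' UMI libraries were prepared from poly(A) RNA of sorted clock neurons, with about 750 pg of cDNA entering tagmentation, per the labels' protocols. The authors deposited UMI counts per gene for 24 libraries, a table of 15610 genes of which 527 held no UMI. STAR, DESeq2 and the dm6 build are named in the submitters' processing notes, without versions, and how shared or antisense reads were counted is not given in the sources used here. The authors' deposited tables of mutant against Cas9 comparisons were not used.

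From the counts, genes passing filterByExpr were tested with edgeR 4.0.16 (R 4.3.3; TMM scaling, robust dispersion, quasi-likelihood F test, Benjamini-Hochberg adjustment over all tested genes, called at an adjusted p under 0.05). Standard errors are the log2 change divided by the square root of F. Ages were compared within a genotype from its 6 libraries, differences of changes from 12, and suspensions from 8 sums. All adjusted p-values of single genes are from edgeR. Alternatives were DESeq2 1.42.0, other scalings, no filter, thinned counts, a depth covariate, a replicate block, a fit of all 24 libraries, and leaving out each library.

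Named genes were the target genes, the core clock, the 15 widest rises and 15 widest falls (groups apart, at least 20 UMIs a library on average in the higher group), the 5 smallest p-values, up to 4 called members of each of 30 lists, and the 5 leading genes of each further test. Members and lists were chosen with earlier results of these data known. Symbols were matched to RefSeq for 15016 genes, whose dm6 coordinates are given.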

Additional observations from a re-analysis of the deposited data

Results flagged for a closer look

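The change between old and young flies differed between Marf-mut and Cas9 for 21 genes by the test of the difference itself (edgeR, adjusted p 0.0082 to 0.0472). Values are the Marf-mut change minus the Cas9 change on the log2 scale. Many of these calls rest on single libraries, and without young Cas9 replicate 3 none was called. The stress and translation genes were Hsp70Ba (-1.43), Hsp70Bbb (-1.58), Hsp27 (-0.74), Aldh (1.81) and eIF3f1 (0.67), the last 2 being the ones above 0. In that order they passed in 5, 6, 3, 6 and 3 of 12 single-library omissions. RNA-handling genes were Ythdc1 (-1.23), the splicing regulators su(w[a]) (-0.81) and B52 (-0.59), the transcription regulator snRNA:7SK (-2.22) and the ribosomal RNA pseudogene 28SrRNA-Psi:CR40741 (-3.86). These passed in 11, 8, 2, 9 and 11 of the 12 omissions.

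Mitochondrial genes were ATPsynE (-1.06), a subunit of ATP synthase, and ND-MWFE (-1.21), a subunit of complex I. They passed in 3 and 2 of the 12 omissions, and both calls were lost with all 24 libraries in 1 fit (adjusted p = 0.183 and 0.293). Receptor genes were Cirl (-0.78) and Pvr (-1.12), the receptor for PDGF- and VEGF-like ligands, which passed in 9 and 2 of the 12 omissions. The homeotic gene Ubx (-1.18) changed by 0.06 in Marf-mut and 1.25 in Cas9. For w (-1.49) the change was 0.22 in Marf-mut and 1.72 in Cas9, and w is also carried as a marker in many transgenes. Ubx passed in 3 and w in 6 of the 12 omissions. The others were CG17059 (-1.63), CG34247 (-2.25), CG31145 (-0.88), CG34200 (-1.14) and lncRNA:CR45299 (-2.73), which passed in 4, 4, 1, 2 and 5. Of the 19 below 0, Ythdc1, Hsp70Bbb and CG34247 were called in both genotypes with opposite directions.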

How the results depend on the processing

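No named call changed direction under any alternative. Of the 53 called genes named by rule, 24 passed under every alternative other than omissions. The fit of all 24 libraries ended 21 of these calls, DESeq2 13, the depth covariate 4 and the replicate block 1. The count of 244 in Marf-mut was 501 with no filter, 663 with log2 depth as a covariate, and 105 to 727 when single libraries were left out (105 without old Marf-mut replicate 1, 727 without young Marf-mut replicate 3). Calls were 77.5% higher in the fit as reported, 65.7% with no filter, 65.6% with depth as a covariate and 57.6% without young Marf-mut replicate 3. In the replicate block the count was 308, of which 239 were among the 244. Replicate numbers pair nothing in the labels, so pairing was not used. Same-numbered old and young libraries deviated together with correlations of 0.14, 0.02 and 0.15, and differently numbered ones with -0.14 to 0.02. The block also called per (-0.56, adjusted p = 0.0336).

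The Cas9 count of 174 was 343 with no filter, 363 with the replicate block, 109 with all 24 libraries, 0 with depth as a covariate, and 51 to 355 over omissions. Total count scaling turned its share of higher calls to 58.1%, against 86.8%. For Opa1-mut the count of 893 was 534 with all 24 libraries and 594 to 802 over omissions. For Marf-mut against Cas9 the count of 21 was 127 with no filter, 62 with DESeq2, 6 with all 24 libraries and 0 to 140 over omissions. For Marf-mut against Opa1-mut the count of 0 was 30 with no filter, 6 with DESeq2, 1 with the replicate block, 7 with depth as a covariate and 0 to 7 over omissions. Over suspensions 291 was 581 with no filter and 65 with the Marf-mut suspensions left out, and total count scaling gave 58% higher against 79.4%. The cause of these shifts was not tested. With 3 pools per group, genes of a few UMIs per library could not be resolved, and clock genes were seen at 1 time of day only.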

Other observations

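Further values are given here, chosen after they were seen. NLaz, a lipocalin induced by stress signalling, rose in old Marf-mut (log2 1.03, adjusted p = 0.0109), and the call ended without old replicate 2 or young replicate 1 (adjusted p = 0.0888 and 0.0623). Rack1, a scaffold on the small ribosomal subunit, rose to 1100, 1100 and 1130 CPM in old Marf-mut, against 789, 804 and 682 CPM in young (log2 0.54, adjusted p = 0.0367), and passed in 1 of 6 single-library omissions.

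The share of ribosomal RNA UMIs in the table was 1.74%, 1.53% and 1.31% in old Marf-mut and 3.36%, 2.29% and 1.42% in young Marf-mut. Leaving out ribosomal RNA and mitochondrial DNA genes gave 251 calls, of which 240 were among the 244. Crz in Cas9 stood at 62.8, 4270 and 38.4 CPM in old and 1530, 2030 and 1730 CPM in young flies, and Dsk in Cas9 at 188, 4220 and 4130 CPM in old and 29.8, 2330 and 2880 CPM in young flies. In both genotypes 1 of the old pools held far more Crz than the other pools of its suspension.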
